A study of Equus caballus with 2 samples.

Results

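The transcription factors described here are 10 genes known for their roles in mesenchymal cells and in epithelial-mesenchymal transition (EMT): *SNAI1*, *SNAI2*, *TWIST1*, *TWIST2*, *ZEB1*, *ZEB2*, *PRRX1*, *RUNX1*, *SOX4* and *SCX*. They were chosen by symbol, without use of their values in the rule, and 9 of the 10 had a row among the 21426 genes listed. *SCX*, the tendon transcription factor scleraxis, had no row under that symbol, and 5196 of the listed genes carry an identifier without a symbol, so that no value is given for it. Endometrial fibroblasts of 4 mares with healthy or only mildly fibrotic endometria were cultured on collagen-coated hydrogels and kept for 24 h in medium in which albumin replaced serum. Control cells had nothing added to this medium, and treated cells had human recombinant TGF-β1 at 10 ng/ml. For each condition, the cells of all 4 mares went into a common pool and 1 droplet library, and transcripts were counted by unique molecular identifiers (UMIs).

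EMT is the process by which epithelial cells loosen their junctions and take on a migratory, fibroblast-like state. Members of the Snail, Twist and ZEB families drive it by binding E-boxes in epithelial genes, above all E-cadherin, and repressing them together with co-repressors, and TGF-β is a classical inducer of several of them. Fibroblasts are already mesenchymal and carry many of these factors constitutively, and in them PRRX1, RUNX1 and the Twist proteins are known for roles in activation and matrix production.

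Barcodes needed a minimum of 20000 UMIs and 3500 genes and a mitochondrial share below 4% to be kept as cells, which left 3865 of 4384 control barcodes and 4513 of 5124 TGF-β1 barcodes. Kept control cells held 210497250 UMIs (median 50313) and kept TGF-β1 cells 219731144 (median 43142). The fibroblast label was borne out by *VIM* and *COL1A1*, which were detected in 100% of cells in both libraries, and the 8 fibroblast markers together had 21499 and 21707 counts per 1000000 UMIs (CPM). Within that sum the markers went different ways, with *VIM* at 4399 and 2240 CPM and *COL1A1* at 5608 and 6376 CPM. The receptors *PDGFRA* and *PDGFRB* were detected in fewer cells, with 53.7% and 26.1% for the former and 75.2% and 59.1% for the latter at equal depth. *CDH1* (E-cadherin) had 6 control and 4 TGF-β1 UMIs in all, *EPCAM* had 1 and 3, and the 6 epithelial markers found summed to 134 and 12.3 CPM, almost all of it *KRT8* and *KRT7*. The 4 endothelial markers summed to 0.784 and 0.410 CPM. Of the 5 immune markers, which summed to 56.6 and 52.9 CPM, *CD68* (42.6 and 43.1 CPM) and *CD14* (13.99 and 9.75 CPM) made up nearly all, while the pan-leukocyte gene *PTPRC* had 1 and 0 UMIs, *CD3E* 2 and 1 and *TYROBP* 0 and 2. The 4 mural markers summed to 742 and 657 CPM. Of these, *DES* (desmin) was detected in 98.2% and 98.4% of cells at equal depth, *RGS5* in 61.2% and 66.6%, *MYH11* in 38.5% and 28.0% and *CSPG4* in 2.35% and 2.08%, and their part in the results was not tested. The libraries shared 2 barcode sequences among their kept cells, and doublets were not removed. With 1 library per condition there was no replicate and no test, library preparation and treatment cannot be told apart, and the share of each mare in a library was not known here. Every 95% interval below is exact binomial and covers counting error only.

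The question was which of these factors differed in level after TGF-β1, in how many cells, and together with which others. Log2 ratios of TGF-β1 to control were taken from UMIs summed over the kept cells, and a gene was counted as changed if it differed by more than 2-fold. *RUNX1* was the only one of the 9 measured factors to pass this limit. It rose 2.39-fold (2.37 to 2.42), from 280.4 to 671 CPM. Of 12116 genes that averaged 1 CPM or more, 6.91% differed by more than 2-fold, 3.45% upwards and 3.46% downwards, and the median log2 ratio was -0.01. The other factors lay between a log2 ratio of -0.79 and 0.48, so that no Snail, Twist or ZEB transcript rose by 2-fold. At a limit of 1.5-fold, passed by 17.0% of all genes in either direction and by 9.36% downwards, 4 of the 9 differed. These were *RUNX1*, which was higher, and *SNAI2*, *TWIST1* and *ZEB2*, which were lower.

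**Figure D1:**
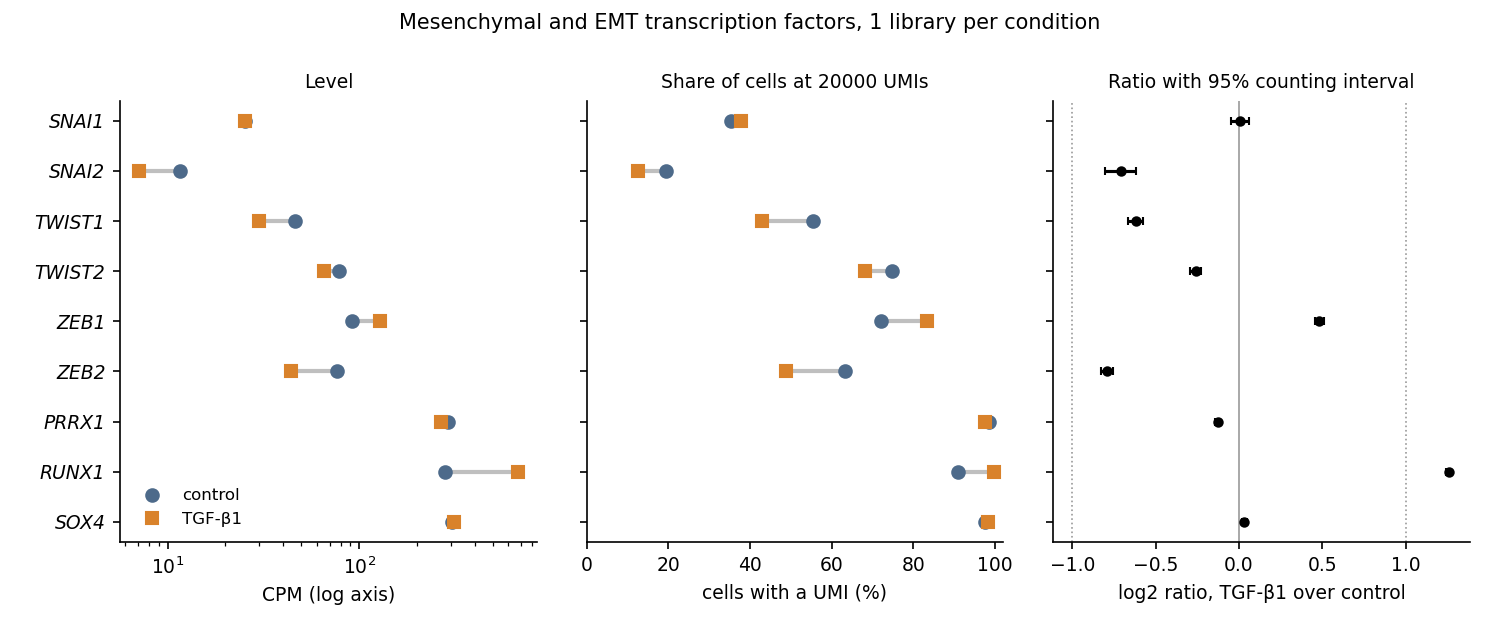
Level of each factor in CPM on a log axis (left), share of cells with a UMI after every cell was thinned to 20000 UMIs (middle), and log2 ratio of TGF-β1 over control with its 95% counting interval (right), for the control (circles) and TGF-β1 (squares) libraries. RUNX1 alone lies beyond the dotted 2-fold lines, at 1.26, and ZEB2, SNAI2 and TWIST1 lie lowest, at -0.79, -0.71 and -0.62.

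Within the Snail family, which comprises zinc finger repressors, the pair diverged. *SNAI1*, which encodes the best known repressor of E-cadherin and is an early TGF-β response gene in many cell types, had 25.4 CPM in control cells (5340 UMIs) and 25.5 CPM in TGF-β1 cells (5601 UMIs). The log2 ratio of *SNAI1* was 0.01 (-0.05 to 0.06), so that at this depth no difference in its level was detectable. For shares of cells at equal depth, 20000 UMIs were drawn from each kept cell. After this thinning, *SNAI1* was detected in 35.3% (33.8% to 36.8%) of cells without and 37.8% (36.3% to 39.2%) of cells with TGF-β1, against 59.8% and 61.9% without thinning. With at least 2 UMIs required, the thinned shares were 11.3% and 11.1%, in the opposite direction. *SNAI2* (Slug), a repressor of the same family with a role in neural crest and mesenchymal progenitors, had 11.6 CPM (2440 UMIs) and 7.095 CPM (1559 UMIs), 1.63-fold lower after TGF-β1, with a log2 ratio of -0.71 (-0.80 to -0.62). It was detected in the smallest share of cells of the 9 factors, with 19.4% (18.2% to 20.7%) for control and 12.6% (11.7% to 13.6%) for TGF-β1 after thinning. The fraction of the pair's UMIs that belonged to *SNAI1* went from 68.6% to 78.2%, and cells with a UMI of *SNAI2* but none of *SNAI1* went from 12.5% to 7.89%. Capture differs between genes, so that in these fractions only the shift between libraries is read.

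Both Twist genes, which encode basic helix-loop-helix factors of the mesoderm, had fewer UMIs after TGF-β1. *TWIST1* had 46.3 CPM (9741 UMIs) in control and 30.1 CPM (6622 UMIs) in TGF-β1 cells, which is 1.54-fold lower, with a log2 ratio of -0.62 (-0.66 to -0.57). Its share of cells was 55.4% (53.8% to 57.0%) against 42.8% (41.4% to 44.3%). *TWIST2*, also known as Dermo1 for its expression in dermal mesenchyme, had 78.1 CPM (16436 UMIs) and 65.3 CPM (14338 UMIs), a log2 ratio of -0.26 (-0.29 to -0.23), and was found in 74.7% and 68.2% of cells. Cells with UMIs of both Twist genes went from 41.5% to 29.4% of cells, and cells without a UMI of either from 11.4% to 18.4%. The excess of the *TWIST1* difference over that of *TWIST2* was 0.36 on the log2 scale.

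The ZEB genes, which encode large repressors with clusters of zinc fingers at both ends, differed in opposite directions. *ZEB1* had 91.6 CPM (19292 UMIs) in control and 128 CPM (28135 UMIs) in TGF-β1 cells, a log2 ratio of 0.48 (0.46 to 0.51), which ranked it 1230 from the top among the 12116 genes. *ZEB2* had 76.2 CPM (16038 UMIs) and 44.1 CPM (9682 UMIs), 1.73-fold lower, with a log2 ratio of -0.79 (-0.83 to -0.75), which ranked it 668 from the bottom. Neither passed 2-fold, but the distance between their log2 ratios was 1.27, and *ZEB1* went from 54.6% to 74.4% of the UMIs of the pair. Shares of cells, which come from the same UMIs, differed in the same directions. After thinning, 72.1% of control cells and 83.3% of those with TGF-β1 held a UMI of *ZEB1*, and 63.3% and 48.9% held one of *ZEB2*. Cells with *ZEB1* alone made up 25.05% (23.7% to 26.4%) without and 41.0% (39.6% to 42.4%) with TGF-β1. Cells with *ZEB2* alone made up 16.2% (15.05% to 17.4%) and 6.56% (5.85% to 7.32%). The share of cells with UMIs of both differed less, with 47.1% and 42.3%. Different cells were measured in each library, so a change within a cell was not tested.

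*PRRX1*, a homeobox gene of limb and stromal mesenchyme, had 290.3 CPM (61114 UMIs) in control and 265.8 CPM (58396 UMIs) in TGF-β1 cells. Its log2 ratio was -0.13 (-0.14 to -0.11), and it was detected in 98.4% and 97.6% of thinned cells, that is, in almost every fibroblast of both libraries. *PRRX2*, its paralog, had 118 and 153 CPM (log2 ratio 0.37, 0.35 to 0.39), and *PRRX1* accordingly went from 71.1% to 63.5% of the UMIs of that pair.

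*RUNX1*, a Runt domain factor best known from blood formation and also active in fibroblasts and mesenchymal progenitors, had 59032 control UMIs and 147524 TGF-β1 UMIs. Its log2 ratio of 1.26 (1.25 to 1.27) ranked 278 from the top. Its share of cells after thinning was 91.02% (90.1% to 91.9%) in the control and 99.7% (99.5% to 99.9%) in the TGF-β1 library, near the upper end of the scale. At 10000 UMIs per cell the shares were 79.9% and 98.1%. The median cell had 4 *RUNX1* UMIs of 20000 in the control and 12 in the TGF-β1 library. The 10th and 90th percentiles were 1 and 12 in the control and 5 and 23 after TGF-β1, so that the libraries overlapped, and the 10th percentile of the TGF-β1 cells lay just above the control median. At least 5 *RUNX1* UMIs, a limit set at that 10th percentile, were present in 45.6% of control cells. The share of TGF-β1 cells, 90.9%, follows from the choice of limit. The variance of its UMIs per cell was 4.95 times the mean in control and 3.99 times the mean in TGF-β1 cells. Of its family, *RUNX2*, a regulator of bone formation, had 31.8 and 29.6 CPM (log2 ratio -0.10, -0.15 to -0.05), and *RUNX3* had 4 UMIs in each library. *CBFB*, the partner subunit that stabilizes Runx proteins on DNA, had 55.45 and 60.6 CPM (log2 ratio 0.13, 0.09 to 0.16).

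*SOX4*, a high mobility group box factor that acts downstream of TGF-β in EMT models, had 304 CPM (64091 UMIs) in control and 311 CPM (68399 UMIs) in TGF-β1 cells, a log2 ratio of 0.03 (0.02 to 0.05), and was detected in 97.6% and 98.2% of cells. This difference was small enough for its sign to depend on which cells were counted: without the cells that had a UMI of *KRT8*, the log2 ratio of *SOX4* was -0.027. Its relatives of the same subgroup had far fewer UMIs, with 2102 and 3925 for *SOX11* (log2 ratio 0.84, 0.76 to 0.92) and 1358 and 1032 for *SOX12* (log2 ratio -0.46, -0.58 to -0.34).

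**Figure D2:**
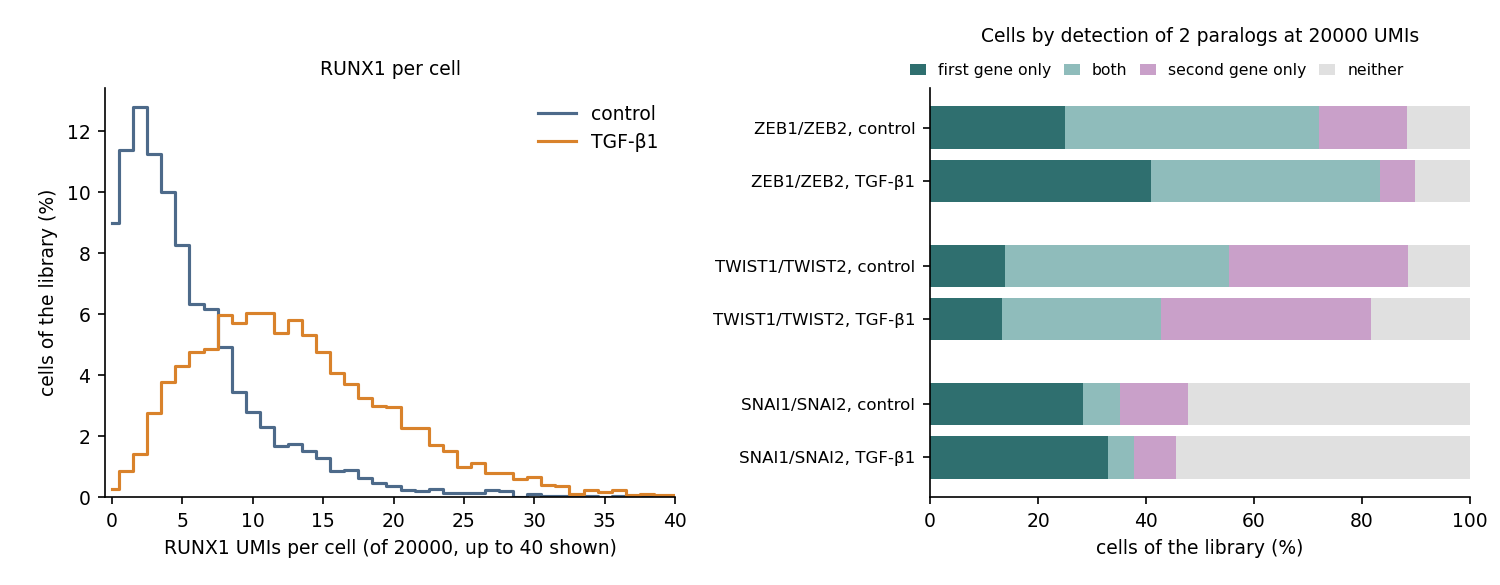
Left, distribution of RUNX1 UMIs per cell in control and TGF-β1 cells, each cell thinned to 20000 UMIs. Right, share of cells with a UMI of the first gene only, both genes, the second gene only or neither, for the ZEB, TWIST and SNAI pairs in each library. The RUNX1 median moves from 4 to 12 UMIs, and cells with ZEB1 alone from 25.05% to 41.0%.

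For none of these shares was there a cell type in the libraries that should lack the factors, so that the contribution of free RNA could not be measured. Median depth per cell differed between libraries, which is why thinned shares are given. The direction of the difference in share was the same as that without thinning for all 9 factors.

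To see whether the differences were spread over the cells, the kept cells of both libraries were clustered again, which gave 8 rebuilt clusters numbered 0 to 7 with between 59 and 1141 cells of a library. *ZEB1*, *ZEB2* and *RUNX1* were among the 2000 variable genes used for this and so helped to place the cells, and the numbers are not those of the study. *RUNX1* rose by more than 2-fold in 8 of 8 clusters, from a log2 ratio of 1.07 in cluster 1 (348.5 to 731 CPM) to 1.63 in cluster 6 (221 to 684 CPM). Of the 12116 genes, 1.38% did so in every cluster, 18.6% were higher in every cluster by any amount, and 23.4% were lower in every cluster. Cluster 6 was cycling-like, with 9 of 9 cycling markers over 2-fold above their level in all other clusters together. *ZEB2* was lower in 8 of 8 clusters, with log2 ratios from -1.30 in cluster 5 to -0.49 in cluster 6. *ZEB1* was higher in 8 of 8, with the interval above 0 in 7, and its smallest log2 ratio was 0.03 (-0.18 to 0.24) in cluster 7, the cluster with the fewest cells. At a clustering resolution of 0.3 (6 clusters), *ZEB1* was lower in 1 cluster, at -0.06. *PRRX1* was lower in 8 of 8, between -0.44 and -0.04, but higher in 2 of 11 clusters at a resolution of 0.8.

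The remaining factors did not have the same direction in all 8 clusters. *TWIST1* was lower in 7 clusters (-0.73 to -0.36) and had a log2 ratio of 0.03 (-0.22 to 0.29) in cluster 7. That cluster also had its highest level, 65.4 CPM in control and 67.0 CPM in TGF-β1 cells. At resolutions of 0.3 (6 clusters) and 0.8 (11 clusters) *TWIST1* was lower in every cluster, but its highest log2 ratio at 0.3 was -0.00097. *SNAI2* was lower in 7 clusters, with the smallest log2 ratio of -1.05 in cluster 1 (12.998 and 6.29 CPM), while in cluster 7 its 41 and 29 UMIs gave a log2 ratio of 0.55 with an interval of -0.19 to 1.27. *TWIST2* was lower in 7 clusters and at 0.03 (-0.12 to 0.19) in the cycling-like cluster 6. *SNAI1* was higher in 3 and lower in 5 clusters, between -0.40 and 0.24, and *SOX4* higher in 5 and lower in 3. The largest *SOX4* ratio, 0.38 (0.30 to 0.47), lay in the cycling-like cluster, from 207 to 269.7 CPM.

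**Figure D3:**
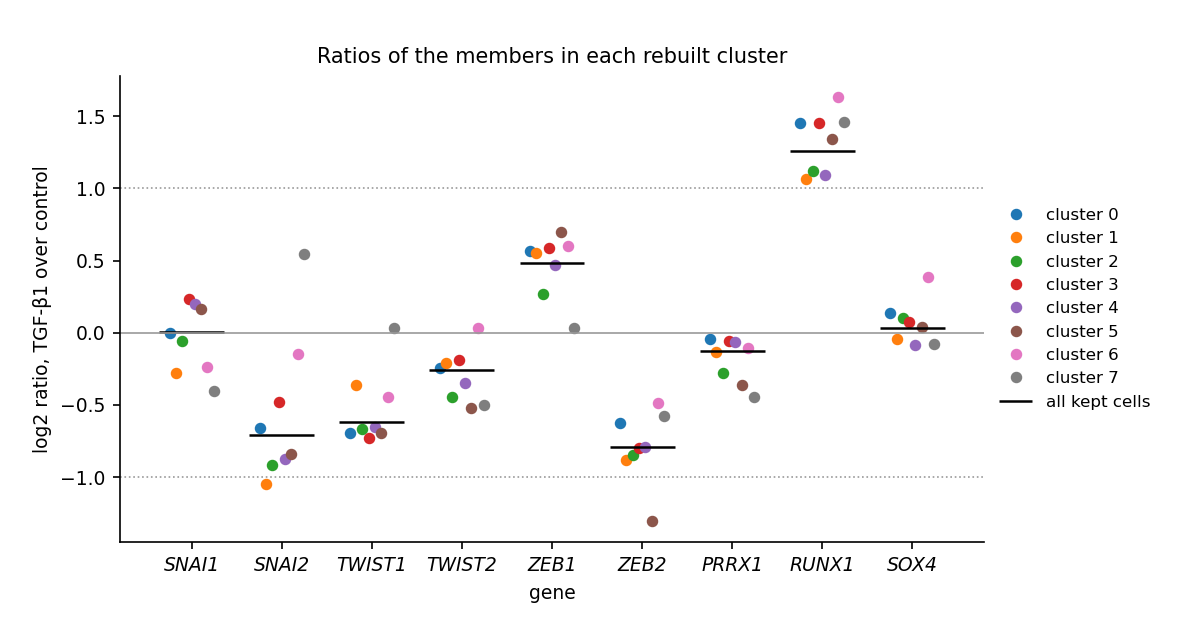
Log2 ratio of TGF-β1 over control for each factor in each of the 8 rebuilt clusters (points) and in all kept cells (bars), with 2-fold marked by dotted lines. All RUNX1 points lie above 1 and all ZEB2 points below 0, whereas those of SNAI1 and SOX4 lie on both sides of 0.

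Levels also differed between clusters within a library. Cluster 5, whose leading genes included *MMP9* and *CFD*, had the lowest control level of *ZEB1* (23.4 CPM), *ZEB2* (22.7 CPM), *PRRX1* (213 CPM) and *RUNX1* (145 CPM) of the 8 clusters. It was also the lowest for these 4 factors in the TGF-β1 library, with 38.0, 9.22, 166 and 369 CPM. *ZEB1*, *ZEB2* and *RUNX1* helped to build the clusters, and how many other genes were lowest in cluster 5 was not counted. The median depth of cluster 5 was also the lowest in both libraries, with 41980.5 and 33731 UMIs. *SNAI1* was highest in that cluster in both libraries, with 32.1 and 35.99 CPM. *SOX4* was highest in cluster 7, with 561 and 533 CPM, and there the interval of its log2 ratio was -0.16 to 0.01.

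Co-detection was examined for the 36 pairs of the 9 factors in thinned cells, against the number of cells expected to hold both if the 2 genes were detected independently within a library. The observed number lay between 0.968 times (*SNAI1* with *ZEB1*) and 1.06 times (*SNAI2* with *ZEB2*) the expected number in control cells. After TGF-β1 it lay between 0.963 times (*SNAI1* with *ZEB2*) and 1.06 times (*SNAI2* with *ZEB1*), and the median over pairs was 1.00 in both libraries. *ZEB1* and *ZEB2*, in spite of their opposite differences between the libraries, were detected together at 1.03 times the expected number in control and 1.04 times in TGF-β1 cells, and at 1.01 times in both when the expected number was taken within each rebuilt cluster. *SNAI1* and *SNAI2* were detected together in 266 control cells with 264 expected, and in 214 TGF-β1 cells with 215 expected. *TWIST1* and *TWIST2* were at 1.00 and 1.01 times. For *PRRX1*, *RUNX1* and *SOX4*, which were found in more than 90% of cells, the expected number is close to the largest possible one, so that a departure from it could hardly show.

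Spearman correlations of UMIs per cell, given as a description over cells of 1 library, ranged from -0.05 to 0.18 in control and from -0.03 to 0.26 in TGF-β1 cells, with a median of 0.04 in both. The highest were *RUNX1* with *SOX4* in control (0.18) and *PRRX1* with *RUNX1* after TGF-β1 (0.26, against 0.16 in control). For *SNAI1* with *RUNX1*, the coefficient was 0.14 in control and 0.03 in TGF-β1 cells. These weak coefficients are not read as relations between the genes.

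Per cell, a mean of 6.07 ± 1.22 (SD over 3865 cells) of the 9 factors were detected in the control and 5.89 ± 1.16 (SD over 4513 cells) after TGF-β1, and the median was 6 in both libraries. No cell lacked all 9 factors in either library. All 9 together were found in 51 control cells (1.32%, 0.984% to 1.73%) and 29 TGF-β1 cells (0.643%, 0.431% to 0.922%), where independent detection gave 1.13% and 0.542%. The variance of the number per cell was 1.08 and 1.09 times that of independent detection.

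Several of these factors are known to repress keratins and other epithelial genes, and *KRT8*, the keratin 8 gene, was detected in part of the control cells. After thinning, 986 control cells (25.5%) and 157 TGF-β1 cells (3.48%) had a UMI of *KRT8*. In the control library, *RUNX1* had 234 CPM in cells with and 287 CPM in cells without *KRT8* (log2 ratio -0.29, -0.34 to -0.25), *SOX4* 269 and 329 CPM (-0.29, -0.33 to -0.25), *ZEB2* 63.8 and 78.6 CPM (-0.30, -0.39 to -0.21), and *TWIST1* 41.8 and 49.8 CPM (-0.25, -0.36 to -0.14). *ZEB1* (-0.14, -0.22 to -0.06) and *PRRX1* (-0.13, -0.18 to -0.09) were lower by less, which makes 6 factors with an interval below 0. The same held for 20.4% of all genes compared, many of which had fewer UMIs and so wider intervals than these factors, and the count is not read as particular to them. *TWIST2* had 79.3 and 78.7 CPM, and the intervals of *SNAI1* and *SNAI2* included 0. In the TGF-β1 library, *RUNX1* (588 and 659 CPM) and *SOX4* (266 and 317 CPM) were again lower in cells with *KRT8*, whereas *TWIST2* was higher, with 78.0 and 63.9 CPM, and the other 6 intervals included 0. Among all genes, 7.38% had an interval below 0 in that library. Detection of *KRT7*, whose share of cells was 23.3% and 11.6%, gave the same direction for *RUNX1*, with log2 ratios of -0.40 (-0.45 to -0.35) in control and -0.20 (-0.24 to -0.16) in TGF-β1 cells. *ZEB2* (-0.19 and -0.20) and *SNAI1* (-0.17 and -0.29) were also lower in cells with *KRT7* in both libraries. With *SOX4* (-0.14) in the control and *ZEB1* (-0.16) and *PRRX1* (-0.13) in the TGF-β1 library, 4 and 5 factors had an interval below 0, as did 13.9% and 13.0% of all genes. In this split, however, control cells had about the same level of *TWIST1* (47.72 and 47.74 CPM) and a log2 ratio of 0.04 (-0.04 to 0.12) for *ZEB1*. In TGF-β1 cells, *TWIST2* (64.3 and 64.4 CPM) and *SOX4* (314 and 315 CPM) were also about level. None of these differences within a library approached 2-fold. Without the cells that had a UMI of *KRT8*, the log2 ratio of *RUNX1* between the libraries was 1.18.

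Cells with at least 3 cycling markers were 75 (1.94%) in the control and 97 (2.15%) in the TGF-β1 library, and their median depth was higher than that of the other cells, with 73668 against 50142 UMIs in the control. At equal depth, *SOX4* had 206 CPM in them and 316 CPM in the other control cells (log2 ratio -0.62, -0.78 to -0.46), and 255 and 317 CPM in the TGF-β1 library (-0.31, -0.44 to -0.18). *RUNX1* was lower in cycling cells of the control (222 and 275 CPM, -0.31) and had 687 and 656 CPM in those of the TGF-β1 library, with an interval of -0.01 to 0.15. *ZEB1* had 160 CPM in cycling and 125 CPM in other TGF-β1 cells (0.36, 0.19 to 0.52), and 84.7 and 90.6 CPM in the control, where its interval included 0.

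The list of other transcription factors linked to EMT or to mesenchymal identity holds 26 genes. A mean of 1 CPM was reached by 17 of them, and after TGF-β1 10 were higher and 7 lower, with a median log2 ratio of 0.09. Over all 12116 genes, 5897 were higher and 6219 lower, with a median of -0.01. More than 2-fold differences were found for *SOX9*, the cartilage factor, which rose from 0.456 to 1.66 CPM (log2 ratio 1.86, 1.53 to 2.20), and for *EGR1*, an immediate early gene, which fell from 175 to 70.9 CPM (-1.30, -1.33 to -1.27). With 96 control and 364 TGF-β1 UMIs, *SOX9* met the minimum of 1 CPM only through the TGF-β1 library. Its passing of the 2-fold limit is therefore not read as a result. *SOX11* (0.84) and *HMGA2*, a chromatin architectural factor that acts on Snail and Twist genes in EMT models (24.7 and 41.9 CPM, log2 ratio 0.76), were next at the upper end. *ETS1* (56.3 and 38.8 CPM, log2 ratio -0.54) and *SOX12* were next at the lower end.

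Partners and co-repressors of the factors differed by less than 2-fold without exception, with 13 of 23 genes higher and 10 lower and a median of 0.10. The largest log2 ratios were those of *SMARCA4*, a chromatin remodelling ATPase (0.42), *WTIP*, a LIM protein that binds Snail (0.24), and *CTBP2*, a co-repressor recruited by ZEB proteins (0.18). The smallest belonged to the TGF-β signal transducers *SMAD3* (34.7 to 21.4 CPM, -0.70) and *SMAD2* (-0.53) and to *ID2*, an inhibitor of basic helix-loop-helix factors (-0.51). Snail protein is known to be controlled by its stability as well as by transcription, which UMIs do not show. Of 13 genes for its turnover, 8 were higher and 5 lower, none by 2-fold, with a median of 0.04. *GSK3B*, the kinase that marks Snail for degradation, had 128 and 192 CPM (0.58), *PRKD1* 0.45 and *FBXW7* 0.23 as log2 ratios, and *CTDSP1*, a phosphatase that stabilizes Snail, 26.5 and 19.7 CPM (-0.43), with *LATS2* at -0.32 and *USP27X* at -0.21.

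Among 25 genes that mark mesenchymal cells and activated fibroblasts, 24 averaged 1 CPM or more. After TGF-β1, 18 were higher and 6 lower, 5 and 3 of them by more than 2-fold, against 3.45% and 3.46% of all genes, with a median log2 ratio of 0.35. This list was chosen with earlier results of these data known, so its counts are not read as an excess over all genes. *FN1* (fibronectin) rose from 1934 to 6087 CPM (log2 ratio 1.65), *FAP*, a surface protease of activated fibroblasts, from 67.9 to 211 CPM (1.63), and *TNC* (tenascin C) from 132 to 389 CPM (1.56). In the opposite direction, *PDGFRA*, a receptor of fibroblasts and their progenitors, fell from 50.5 to 16.7 CPM (-1.60), *THY1* from 216 to 87.5 CPM (-1.30) and *S100A4*, also called fibroblast-specific protein, from 7293 to 3161 CPM (-1.21). Of 34 epithelial genes, only 7 had a mean of at least 1 CPM. *SPINT1*, a protease inhibitor, was higher (2.98 and 4.76 CPM, log2 ratio 0.67) and 6 were lower, with a median of -0.57. *KRT8* fell from 114 to 4.48 CPM (-4.67) and *KRT7* from 19.3 to 7.04 CPM (-1.46), and the junction genes *PATJ* (-0.57), *JUP* (-0.11) and *TJP1* (-0.07) did not pass 2-fold.

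*SCX* itself could not be followed, but 10 tendon genes were examined, and of the 6 that averaged 1 CPM or more, 3 were higher and 3 lower, with a median of -0.30. *TNC* rose, as given above, *MKX*, the tendon factor Mohawk, had 1.07 and 1.43 CPM (log2 ratio 0.42), and *COL11A1* 38.9 and 46.4 CPM (0.25). *EGR1* and *COL14A1* (35.6 to 15.3 CPM, -1.22) fell, and *FMOD* (fibromodulin) had 3.85 and 2.14 CPM (-0.85).

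**Figure D4:**
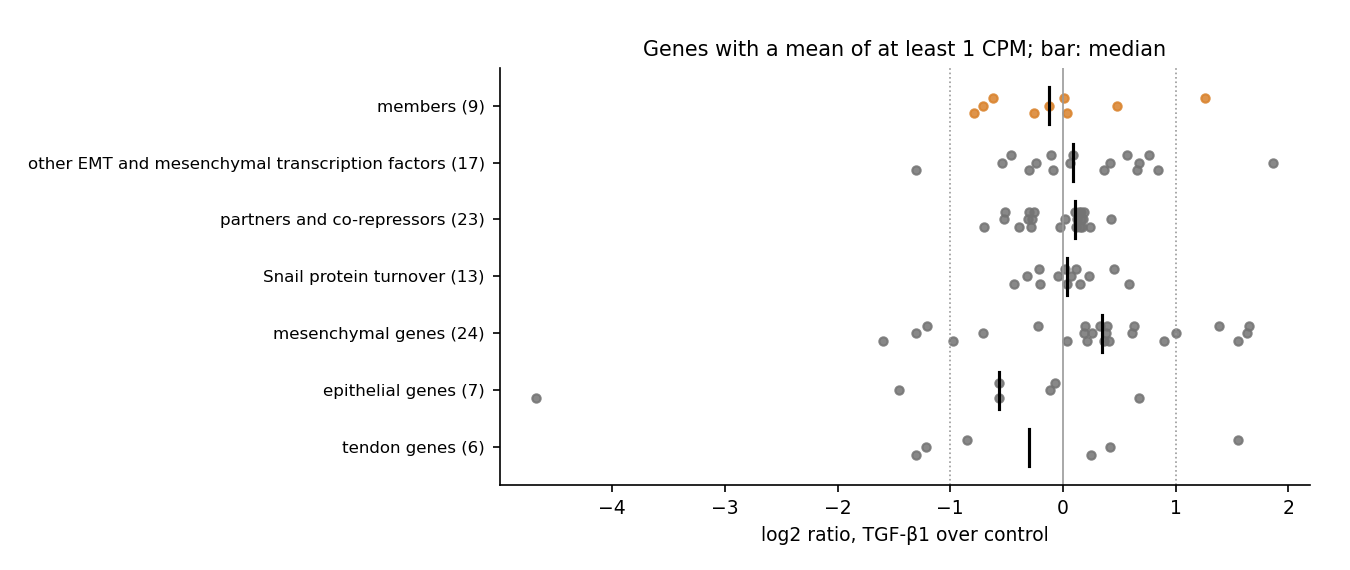
Log2 ratio of TGF-β1 over control for the 9 measured factors and for the genes of each list with a mean of at least 1 CPM (number in brackets), with the median as a bar and 2-fold as dotted lines. The factors had ratios from -0.79 to 1.26 and the mesenchymal genes from -1.60 to 1.65. The lists differ in size, so these ranges are not compared.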

How the data were processed

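For each library, the authors deposited UMI counts per gene and cell barcode from 3′ droplet sequencing, made with Cell Ranger against EquCab3.0 and its Ensembl annotation. Its version is 7.1.0 in the submitters' processing notes and 8.0.1 in the headers. The values were whole counts without normalization. Barcodes outside the cell filters of the study's methods were still present, and these filters were applied here. Cells given MFGE8 were not analysed here. Doublets and mares, which the study took from genotypes in the reads, were not assigned, and edgeR, which the study used, was not run because there is 1 library per condition.

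Counts of kept cells were summed per library and scaled to CPM with pandas 2.3.3, numpy 2.4.6 and scipy 1.17.1 under Python 3.11.15. Ratios carry no pseudocount. Intervals are exact binomial (Clopper-Pearson) at 95%. The kept depth of 210497250 and 219731144 UMIs makes them narrow, and differences between mares or cultures are not in them. Cells were clustered in Seurat 5.3.0 (R 4.3.3) at resolution 0.5, after canonical correlation integration on 30 dimensions of 2000 variable genes. Clusters with at least 50 cells of each library were compared. The script was tested on simulated data.

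All 10 factors, and of each list the 3 genes with the largest and the 3 with the smallest log2 ratio, are named, together with the 3 genes most correlated with a factor over clusters, of which 1 is not reported here. Other genes named (such as *CBFB*, *RUNX2*, *PRRX2* and the markers) were chosen for their relation to a factor or as markers. The factors and lists were chosen with earlier results of these data known. Alternatives were other cell filters, removal of cells with *KRT8*, with cycling markers or with the most UMIs, other scalings, thinning depths, limits and cluster resolutions.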

Additional observations from a re-analysis of the deposited data

How the results depend on the processing

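Over 11 alternative cell filters and scalings, the 9 factors gave 99 log2 ratios, of which 87 stayed within the counting interval of the reported value, 11 lay outside it with the same sign, and 1, that of *SOX4*, lay outside it with the opposite sign. *SNAI1*, whose interval included 0, was also below 0 in 2 of 11 alternatives, at -0.028 without *KRT8* cells and -0.0075 with equal cluster shares. *RUNX1* stayed above 2-fold in all 11, with log2 ratios from 1.18 to 1.27. Without cells that had a UMI of *KRT8*, the log2 ratio was -0.027 for *SOX4*, against 0.03 with them, -0.68 for *TWIST1*, 0.45 for *ZEB1*, -0.85 for *ZEB2*, -0.16 for *PRRX1* and 1.18 for *RUNX1*. With cells thinned to 20000 UMIs before summing it was -0.29 for *TWIST2*, -0.15 for *PRRX1* and 0.0063 for *SOX4*, and as the mean of per-cell CPM -0.15 for *PRRX1* and 0.011 for *SOX4*. Without the 2% of cells with the most UMIs, *ZEB2* was at -0.75. A 1.5-fold limit was passed by 4 factors. Shares of cells depended on depth and limit, and 55 of 90 alternative shares lay outside their interval. At 10000 UMIs, for example, *SNAI1* was in 19.6% and *SNAI2* in 11.2% of control cells, and *ZEB2* in 29.8% of TGF-β1 cells. Counting cells with at least 2 UMIs, the share of *SNAI1* was 11.3% in control and 11.1% in TGF-β1 cells, opposite to the direction at 1 UMI, and the other 8 factors kept theirs. Thinning to 10000 UMIs moved the highest observed over expected number of a pair in TGF-β1 cells to 1.17, and expecting numbers within clusters gave 1.04 in both libraries. With a minimum mean of 10 CPM, 6 of the other EMT and mesenchymal transcription factors were higher and 4 lower, and 0 epithelial genes were higher. Without the 2% of cells with the most UMIs, 2 epithelial genes were higher. At a resolution of 0.3 (6 clusters), *ZEB1* was lower in 1 cluster, and at 0.8 (11 clusters) *PRRX1* was higher in 2. *TWIST1* was lower in all clusters at both, against 7 of 8 at 0.5, but its highest log2 ratio at 0.3 was -0.00097. *RUNX1* was higher and *ZEB2* lower in all clusters at both. The causes were not tested. No paired analysis was possible because the mares, whose cells were pooled in both libraries, were not assigned from the reads here.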

Other observations

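To describe which genes had a pattern most like that of a factor, log2(CPM + 1) was correlated over the 16 sums of 8 rebuilt clusters and 2 libraries, among 7212 genes with a symbol and a mean of at least 10 CPM. The sums share libraries, so that these coefficients are a description and carry no test. Nearest to *RUNX1* were *STAC* (Pearson's r = 0.981, 18.6 to 139 CPM), *ACVR1*, an activin and bone morphogenetic protein receptor (0.975, 30.1 and 56.2 CPM), and *ATP11A* (0.965, 4.47 to 16.6 CPM). *ATP11A* met the minimum of 10 CPM only through the TGF-β1 library, where *RUNX1* was also higher. *ZEB1* was nearest to *SMURF2*, a ubiquitin ligase of the TGF-β pathway (0.987, 112 and 146 CPM), *TASOR2* (0.983) and *GATAD2B* (0.982). Among the genes near to *ZEB2* were *ELF1* (0.981, 103 and 81.3 CPM) and *MBTPS1* (0.980). *TWIST1* was nearest to *RHBDF1* (0.939, 19.7 and 10.2 CPM), *IFT57* (0.937) and *CCDC90B* (0.918), and *TWIST2* to *WARS2* (0.889), *LTBP4* (0.886) and *TBC1D10B* (0.886). *PRRX1* was nearest to *CMTM6* (0.941), *ADAMTS17* (0.937) and *CRNKL1* (0.930), and *SOX4* to *FGF2*, a fibroblast growth factor (0.939, 410.0 and 382 CPM), *SLU7* (0.924) and *ZNF655* (0.915). The lowest leading coefficient was that of *SNAI1*, with *SH3BGRL3* (0.833), *ETV2* (0.790) and *CHCHD7* (0.787). *SNAI2*, with a mean of 9.34 CPM, was below the minimum for this comparison.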
